A study of Drosophila melanogaster with 53 samples.

Results

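The genes described here are the subunits of the vacuolar H+-ATPase (V-ATPase) and 5 lysosomal genes of Drosophila melanogaster, followed in adult muscle RNA across male age and across female mutants. Members were chosen by name: every gene whose symbol starts with Vha, together with Lamp1, cathD, spin, Npc1a and Npc2a. The rule found 27 genes among 11010 gene identifiers in the deposited tables. Of these, 22 are V-ATPase genes (10 of the V1 sector, 12 of the V0 sector with its accessory proteins) and 5 are the lysosomal genes. In the table of male ages 25 of them were found. Vha26 and Vha13 had no row there under the identifiers used, and older identifiers of these genes were not searched. Both tables of female mutants list all 27, and the authors' deposited table for axenic flies lists 26. Vha100-4, an isoform of subunit a, was close to 0 in every table, with means of 3.04 in males, 1.60 in the Atg8a and daw set and 4.98 in the miR-252 and foxo set, and was not tested. A further 12 Vha genes named in the reference annotation are not members, 10 of them because no table lists them.

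The V-ATPase is a rotary proton pump that acidifies lysosomes, endosomes and secretory compartments. Its soluble V1 sector hydrolyses ATP, with catalytic A subunits alternating with B subunits, and its membrane V0 sector carries protons through a ring of c subunits beside subunit a. Several fly subunits are encoded by more than 1 gene, so isoforms can be exchanged between tissues. Lysosomal hydrolases need the acid lumen that the pump makes, and in autophagy the lysosome fuses with autophagosomes, whose membranes carry lipid-linked Atg8a.

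The study measured polyadenylated RNA by sequencing in muscle of flies kept at 25 °C and 60% humidity, with 3 libraries per group. Control flies are the line 5905 (w1118), which is the background of every comparison. Males of this line were taken at 3, 15, 30 and 45 days (d) after eclosion. Females were all 3 d old and fall into sets with separate normalisation. The Atg8a and daw set holds control females, the homozygous Atg8a mutant (allele c320), the homozygous daw-3'UTR mutant (allele c82) and the double mutant that combines the latter with homozygous foxo (allele c431). The miR-252 and foxo set holds control females, the homozygous miR-252 mutant (allele c328), the homozygous foxo mutant (c431), the miR-252, foxo double mutant, and that double mutant with 1 copy of the daw allele c458. In the axenic set, control and foxo (c431) females were raised on food with ampicillin, tetracycline and rifamycin, and all other flies were raised conventionally. Each mutant is a single allele carried by the whole animal, so muscle-specific effects cannot be told apart from effects of other tissues. The labels do not say that libraries come from separate animals, so p-values measure the spread between these libraries only.

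Values are normalised read counts, that is, reads per gene divided by 1 size factor per library. Library totals ran from 2358162 to 4078819 reads. A difference is a log2 difference of the normalised count plus 1, with its standard error (SE), and a member is said to rise or fall where its adjusted p from limma, over all genes tested in that table, was under 0.05. A value in parentheses after a gene name is such a log2 difference. Overlap of libraries between groups is described without a test. The share of all genes without overlap was not computed, and called genes were picked for such separation. In bulk RNA, fewer cells of a type and less RNA per cell cannot be told apart. Replicate 3 of the 3 d males stood apart: its correlation with the other 3 d libraries was 0.848 and 0.845, against 0.979 between those libraries and 0.967 to 0.988 within all other groups. Results on male age are therefore given with and without it. In the miR-252 and foxo set, control library 2 and replicate 2 of the foxo and of the miR-252, foxo mutants stood apart on 3 lysosome genes outside the members. For the mannosidase LManVI they held 205, 294 and 359 normalised counts, against at most 6.55 in the other 12 libraries. Their correlations lay within the range above, and counts of calls without each of them are given beside the results or with the alternatives. Atg8a reads checked their label, with means of 49.6 in the Atg8a mutant and 3145 in its control. Reads of foxo were no lower in any group labelled foxo mutant (means of 753 in the foxo mutant and 582 in its control), so they do not check that label, and the labels do not say what the allele removes. Muscle markers were present throughout, with 13 of 14 found in males and 14 of 14 in both female sets, and none at 0.

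In control muscle the members spanned a wide range of expression. On the scale of normalised counts per kilobase of exon, the proteolipid Vha16-1 (subunit c, the proton-carrying ring) was the highest member in all 3 tables, at 1402 in control females of the Atg8a and daw set, 1842 in those of the miR-252 and foxo set and 1362 in 3 d males. The peripheral-stalk subunit Vha13 (G) followed in both female control groups, at 956 and 1416 per kilobase, and then the ATP-site subunit Vha55 (B) at 835 and 1007 and the stalk subunit Vha26 (E) at 707 and 827. In the Atg8a and daw set the library ranges of Vha13 and Vha55 did not overlap, while those of Vha26 and Lamp1 did. Among lysosomal genes Lamp1, a glycoprotein of the lysosomal membrane, reached 696, 760 and 825 per kilobase in the same order of groups, and cathD, the aspartyl protease cathepsin D, reached 481, 761 and 812. The sterol-transfer genes were lower, at 164, 228 and 361 for the luminal carrier Npc2a and 35.0, 47.7 and 47.2 for the membrane protein Npc1a. Isoforms of 1 subunit differed widely in level. For subunit a, which forms the proton half-channels, Vha100-2 stood at 305 per kilobase in control females of the Atg8a and daw set, Vha100-1 at 109 and Vha100-5 at 22.9. For subunit e, VhaM9.7-b at 265 and VhaM9.7-c at 83.6 lay above VhaM9.7-a at 14.6 per kilobase in those females. In 3 d males VhaM9.7-a at 93.6 and VhaM9.7-c at 97.5 overlapped in their libraries. Tables were normalised separately, so levels in different tables are set side by side without a test.

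**Figure D1:**
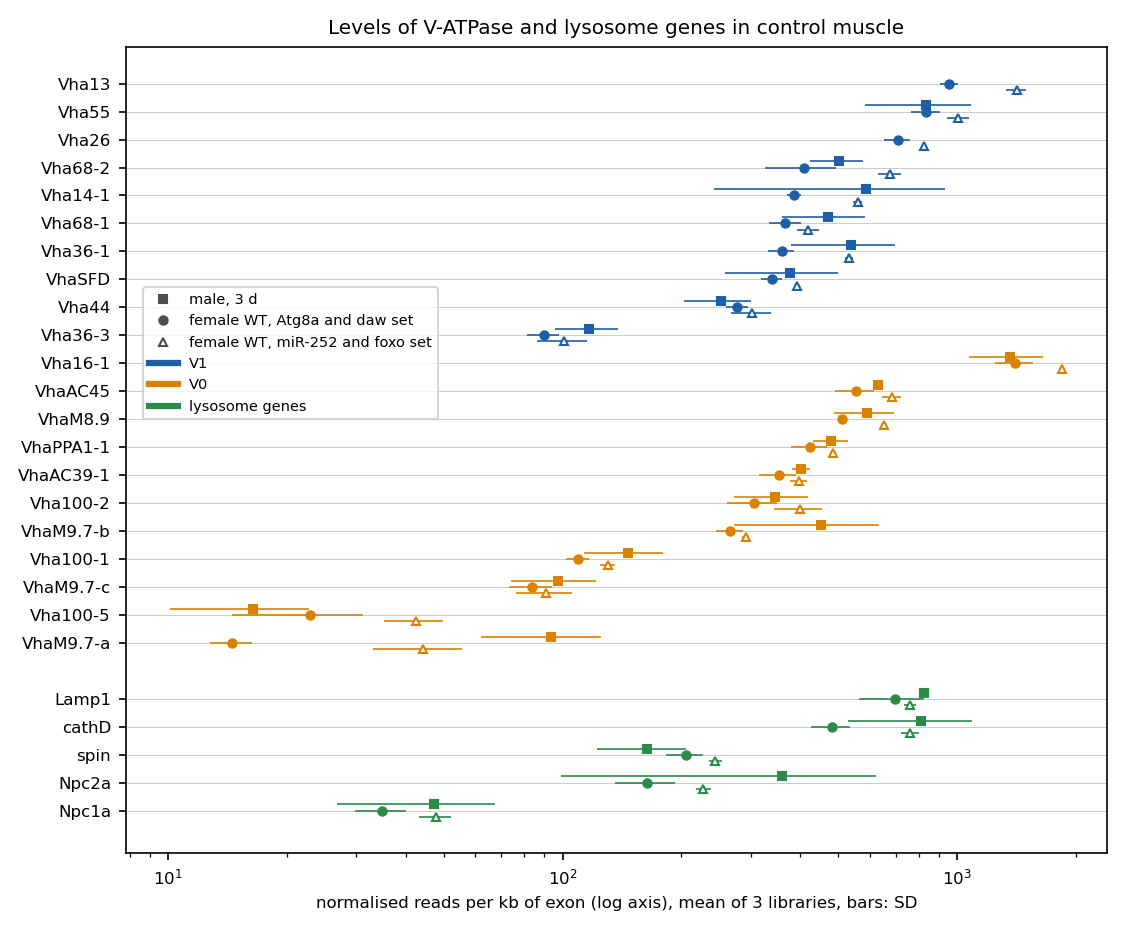
Level of 26 members in 3 control groups (3 d males, and control females of both sets), as mean normalised count per kilobase of exon with SD bars over 3 libraries, on a log axis. Vha16-1 is highest in every group, and Vha26 and Vha13 have no value in males.

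Some counts may include reads of neighbouring genes. Of the 27 members, 9 overlap another entry of the annotation, 8 of them an entry on the opposite strand, and strand use in counting is not stated in the labels. Overlaps were measured between whole gene spans, introns included, so not all of the bases given here lie in exons. Transposons are among these entries. The span of cathD overlaps a Burdock element on the opposite strand by 6412 bases, while its exons total 1784 bases. Lamp1 overlaps FB and INE-1 elements only. Overlaps with named genes over 500 bases long were Vha100-2 with Vti1b (2175 bases), VhaM9.7-c with CG18675 and Teh2 (848 bases), Vha100-5 with asRNA:CR44144 (677 bases) and Vha44 with Hmgs (548 bases). The A-subunit genes Vha68-2 and Vha68-1 lie on chromosome arm 2L at 12974322 to 12978607 (plus strand) and 13000770 to 13004107 (minus strand) in the BDGP6 annotation of the dm6 build. As they encode similar proteins, some reads may match both genes, and how such reads were counted was not checked.

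In ageing male muscle the A-subunit isoform Vha68-1 fell, and few other members passed the test while all 3 d libraries were used. Normalised counts of Vha68-1, which carries the catalytic ATP site, were 1412, 1459.7 and 920.4 at 3 d, 775, 845 and 892 at 15 d, 730.3, 744 and 735 at 30 d and 629, 649 and 617 at 45 d. All older libraries lay below the lowest 3 d library, and no neighbouring age groups overlapped. The difference from 3 d was -0.75 (SE 0.17, adjusted p = 0.0135) at 30 d and -0.97 (SE 0.17, adjusted p = 0.00216) at 45 d. The call at 30 d was lost without replicate 1 (adjusted p = 0.0536) or without replicate 3 (adjusted p = 0.0519) of the 30 d group. The other A-subunit gene, Vha68-2, had 1531, 1479 and 1139.8 at 3 d and 1703, 1614 and 1866 at 45 d, a difference of 0.33 (SE 0.14, adjusted p = 0.138). Its 45 d libraries lay above those of 3 d without overlap, but the test was not passed. Normalised totals were 4.53e+06 to 5.42e+06 at 3 d and 2.52e+06 to 2.57e+06 at 45 d. The reads behind them numbered 3142763 to 3286566 and 2838395 to 3345028. Differences with male age therefore rest on the size factors. With scaling to a common upper quartile, again 1 factor per library, 2 members fell at 45 d. Scaling to library totals was not tried. As the normalised totals were lower at 45 d, it would make falls smaller and rises larger. The falls of single genes are therefore stated on the scale of the size factors only. The share of Vha68-1 in A-subunit RNA, given below, does not depend on that scale.

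The e-subunit isoform VhaM9.7-a, a small membrane subunit of V0, fell as well. Its counts were 53.4, 53.6 and 92.4 at 3 d and 30.2, 41.7 and 19.9 at 45 d, with a difference of -1.11 (SE 0.29, adjusted p = 0.0203). The groups did not overlap, and the highest 3 d value belonged to the replicate that stood apart. In all, 0 of 24 members tested rose and 2 fell between 3 d and 45 d, where 18.9% of all genes were called (8.41% higher and 10.5% lower). At 30 d, 1 member (Vha68-1) fell and 0 rose against a background of 13.5% (5.4% higher and 8.09% lower). The number called was 0 without replicate 1 or replicate 3 of the 30 d group and 3 without replicate 1 of the 3 d group. Without replicate 1 or replicate 3 of the 45 d group, 1 member was called at 45 d, and the adjusted p of VhaM9.7-a was 0.0581 and 0.0881. At 15 d limma called 0 members (background 7.97%, with 2.35% higher and 5.62% lower), with 4 at an unadjusted p under 0.05, 0 by edgeR and 4 by DESeq2. All of these comparisons share the 3 d libraries.

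Leaving out replicate 3 of the 3 d group raised the calls in the whole table and among the members. At 45 d, 4 members then rose and 8 fell of 24, with 48.7% of all genes called (23.7% higher and 25.1% lower). At 30 d the numbers were 2 and 9, against 42.1% of all genes (20.5% higher and 21.5% lower). At 15 d they were 2 and 8, against 30.8% (14.2% higher and 16.6% lower). The members' share was near the background at 30 d and 45 d. Of 8 V1 genes tested, 1 rose and 4 fell at 45 d. Of 11 V0 genes, 1 rose and 4 fell, and of 5 lysosomal genes 2 rose and 0 fell.

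Within V1, Vha55 had 2706, 2753 and 1516 normalised counts at 3 d and 1922, 1895 and 1993 at 45 d, so the aged libraries lay between replicate 3 and the other 3 d libraries. Its difference was -0.21 (adjusted p = 0.511) with all libraries and -0.50 (adjusted p = 8.20e-06) without that replicate. For Vha44 (C, which joins the stalks) the same values were -0.31 (adjusted p = 0.196) and -0.48 (adjusted p = 1.93e-05), and for VhaSFD (H, a regulatory subunit) 0.01 (adjusted p = 0.981) and -0.29 (adjusted p = 0.00169). Vha68-1 kept its direction, at -1.18 (adjusted p = 1.28e-09). In V0, VhaM9.7-b, the most highly expressed e isoform, had 419.6, 429 and 805 at 3 d and 561, 704 and 653 at 45 d. Its difference was 0.28 (adjusted p = 0.429) with all libraries and 0.58 (adjusted p = 3.31e-05) without replicate 3, opposite in sign to that of VhaM9.7-a at -0.85 (adjusted p = 0.0113).

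Lysosomal members did not pass the test at any age while all libraries were used. Counts of cathD were 1133, 1183 and 2029 at 3 d, 1674, 1524 and 1435 at 15 d, 1719, 1686 and 1583 at 30 d and 1907, 1664 and 1871 at 45 d. The 3 d replicate that stood apart held the highest value of all, and every older library lay above the other 3 d libraries. The difference at 45 d was 0.37 (adjusted p = 0.234), or 0.64 (adjusted p = 8.24e-06) without that replicate. Npc2a had 123, 151 and 431 at 3 d and 201, 183 and 210.3 at 45 d. Its difference was -0.02 (adjusted p = 0.982), or 0.53 (adjusted p = 0.0046) without replicate 3. Lamp1 (-0.04, adjusted p = 0.858), Npc1a (0.33, adjusted p = 0.459) and spin, a transporter that exports lysosomal contents (0.38, adjusted p = 0.201), passed neither fit at 45 d.

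Between successive ages after 15 d no member passed the test while all male libraries were in the fit. Between 15 d and 30 d limma called 0 of 24 (background 0.0834%, with 0.0238% higher and 0.0596% lower), with 1 at an unadjusted p under 0.05 and 0 by edgeR or DESeq2. Between 30 d and 45 d it called 0 of 24 (background 0%), with 0 at an unadjusted p under 0.05 and 0 by either count test. These backgrounds come from a spread that includes the 3 d libraries. When limma was fitted to the groups compared alone, it called 677 of 8393 genes between 15 d and 30 d (331 higher and 346 lower) and 300 between 30 d and 45 d (108 higher and 192 lower). Of the members 1 then rose between 15 d and 30 d and 0 passed between 30 d and 45 d, with 4 at an unadjusted p under 0.05. The former was VhaM9.7-b, with 457, 458 and 455 normalised counts at 15 d and 637, 631 and 641 at 30 d, and a difference of 0.48 (SE 0.07, adjusted p = 0.000291).

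Of 33 other lysosome genes tested, 3 rose and 2 fell at 45 d, and 11 rose and 7 fell without replicate 3. Cln3 (-1.68, adjusted p = 0.000497) and Cln7 (-1.14, adjusted p = 0.000407), membrane proteins whose human counterparts are lost in neuronal ceroid lipofuscinosis, fell. Sap-r, the precursor of saposins (0.54, adjusted p = 0.0422), the mannosidase LManII (0.49, adjusted p = 0.0281) and the protease CtsF (0.46, adjusted p = 0.0368) rose. Atg8a itself had a mean of 3459 at 3 d and 1401 at 45 d. Cell-type markers moved with age too. Of 13 muscle markers, 10 fell at 45 d and their summed counts were 74906 to 227976 at 3 d and 41420 to 43483 at 45 d. Without replicate 3 of the 3 d group, 12 of 13 fell. Of 9 neuron markers 0 changed with all libraries and 9 fell without that replicate (medians of -0.31 and -0.78), and their summed counts were 1428 to 5282 at 3 d and 2656 to 2948 at 45 d. Of 4 photoreceptor markers 3 fell with all libraries and 4 without it (medians of -4.33 and -4.37). Of 7 gut markers 0 rose and 3 fell with all libraries, and 2 rose and 4 fell without it. Of 8 hemocyte markers 1 rose and 2 fell, or 2 and 3 without it. Summed Malpighian tubule markers were 208 to 271 at 3 d and 343 to 362 at 45 d. Of 6 such markers 1 rose and 0 fell, or 2 and 0 without replicate 3 of the 3 d group. The summed fat body markers were 8713 to 20896 at 3 d and 25878 to 30717 at 45 d, and 2 of 5 rose, or 3 without that replicate. Their part in the members' changes was not tested.

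**Figure D2:**
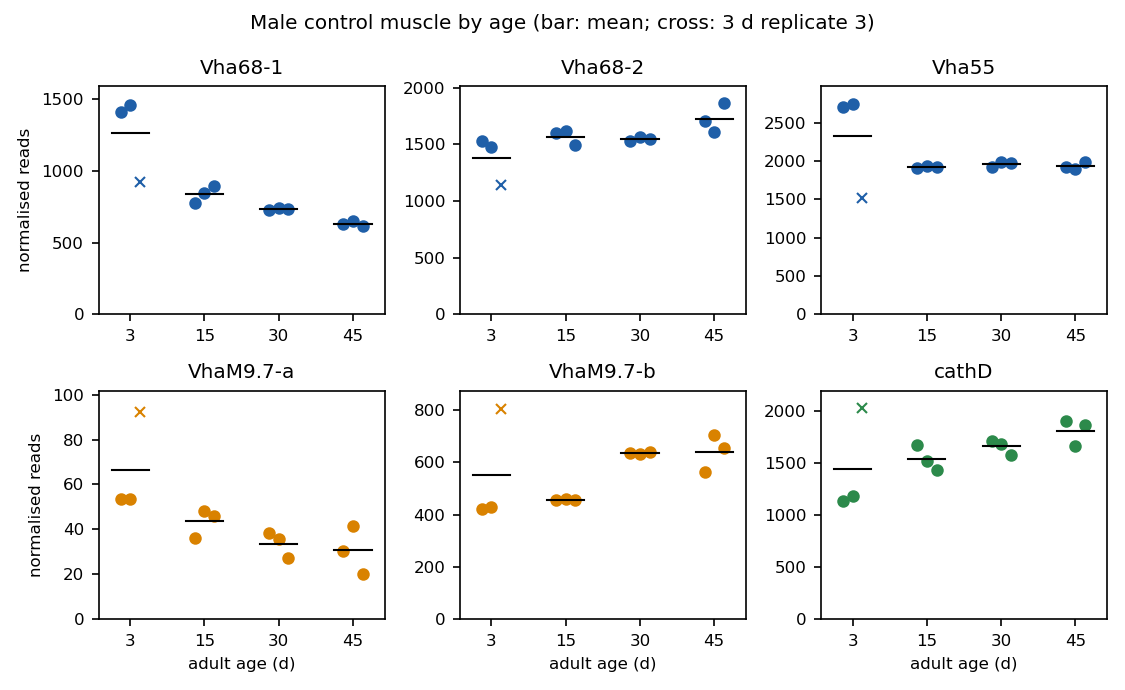
Normalised counts per library of 6 members in male muscle at 3, 15, 30 and 45 d, with bars at the group means over 3 libraries and a cross for replicate 3 of the 3 d group. Vha68-1 is lower in every older library, while Vha55 and cathD have the 3 d replicate marked by a cross on the other side of the older libraries from the other 3 d libraries.

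The share of Vha68-1 in A-subunit RNA followed from these levels. Computed per kilobase as Vha68-1 over the sum of Vha68-1 and Vha68-2, it was 48.2% ± 2.54 (SD, n = 3) at 3 d, 35.5% ± 2.42 at 15 d, 32.9% ± 0.106 at 30 d and 27.4% ± 1.94 at 45 d. Replicate 3 of the 3 d group lay at 45.4%, near the other 3 d libraries at 48.7% and 50.4%. Among females the share was 47.6% ± 2.73 in controls of the Atg8a and daw set, 52.5% ± 3.93 in the Atg8a mutant, 45.3% ± 2.83 in the daw-3'UTR mutant and 36.2% ± 1.66 in the daw-3'UTR; foxo double mutant. The double mutant libraries (35.1% to 38.1%) did not overlap the controls (44.7% to 50.2%). In the other set it was 38.3% ± 2.52 in controls and 31.9% ± 0.979 in the foxo mutant, without overlap (31.2% to 33.0% against 36.0% to 41.0%). The other groups of that set overlapped the controls, with 42.1% ± 3.20 in the miR-252 mutant (38.5% to 44.4%), 34.7% ± 3.87 in the miR-252, foxo double mutant (30.8% to 38.6%) and 38.0% ± 1.80 in the same mutant with the daw allele (36.0% to 39.4%). The control groups of the separate female sets differed from each other by more than either group's SD, and no test was made across sets.

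**Figure D3:**
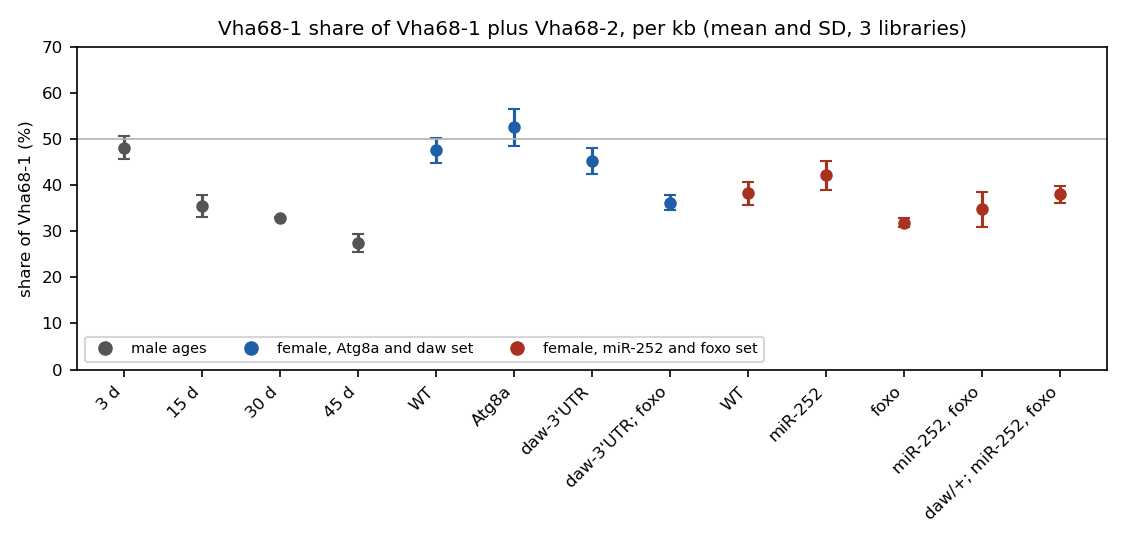
Vha68-1 as a percentage of A-subunit RNA (Vha68-1 plus Vha68-2, per kilobase of exon) in 13 groups, as points for the libraries' mean with SD bars over 3 libraries. The share is 48.2% in 3 d males and 27.4% in 45 d males, and 36.2% in the daw-3'UTR; foxo double mutant against 47.6% in its control.

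In muscle of the Atg8a mutant 3 members rose and none fell. Atg8a is the ubiquitin-like protein that is conjugated to autophagosome membranes, and the comparison asks how its absence changes the transcriptome. Npc2a, which carries sterol out of the lysosome, had 86.5, 111 and 122 normalised counts in controls and 162, 164 and 169.8 in the mutant, a difference of 0.64 (SE 0.17, adjusted p = 0.0258). VhaM9.7-a had 8.88, 10.9 and 11.2 in controls and 21.5, 21.1 and 21.0 in the mutant, a difference of 0.98 (SE 0.24, adjusted p = 0.0205) in a gene near the lower limit of 10 for testing. Vha36-3, another gene for the rotor subunit D, had 125, 104 and 119 in controls and 165, 149 and 153 in the mutant, a difference of 0.42 (SE 0.11, adjusted p = 0.0292). In none of the 3 genes did the groups overlap.

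These are 3 of 26 members, where 9.89% of all genes were called (5.16% higher and 4.73% lower). The count was 0 when any single Atg8a library was left out, with adjusted p of 0.0556 to 0.108 over the 3 genes, and DESeq2 called 1. Without control replicate 1 the adjusted p was 0.0951 for Npc2a and 0.0631 for VhaM9.7-a, and without control replicate 2 it was 0.109 for Vha36-3. Of the members that did not pass the test, Vha16-1 had a difference of -0.10 (SE 0.09) and Vha55 one of 0.08 (SE 0.08). The difference was -0.03 (SE 0.08) for Vha26 and -0.11 (SE 0.12) for Vha68-2. Vha68-1 did not pass either, with 1171, 1009 and 1157 in the mutant and 953, 1085 and 912 in controls. Among the lysosomal genes cathD had 928, 899 and 748 in controls and 1271, 1040.5 and 1037 in the mutant. The groups did not overlap, but the difference of 0.38 (adjusted p = 0.0927) did not pass. Lamp1 (0.18, adjusted p = 0.367), Npc1a (0.26, adjusted p = 0.151) and spin (-0.19, adjusted p = 0.398) did not pass either.

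Other lysosome genes moved in both directions in the Atg8a mutant, with 3 of 32 tested rising and 4 falling. Cln3 (1.28, adjusted p = 0.028) and Cln7 (0.83, adjusted p = 0.00169) rose, as did Lerp, the fly receptor for sorting lysosomal enzymes (0.52, adjusted p = 0.0334). Mitf, the fly homologue of the TFEB transcription factors that act on V-ATPase and lysosome genes, fell (-0.69, adjusted p = 0.000603). Npc2h (-1.12, adjusted p = 0.00111) and Npc2g (-0.45, adjusted p = 0.0116), which belong to the Npc2 family, fell, and so did lt, a subunit of the HOPS tethering complex (-0.44, adjusted p = 0.0115). Hemocyte markers summed to 3566 to 4137 in the mutant and 4262 to 4495 in controls, and 1 of 8 rose and 3 fell. Summed fat body markers were 15184 to 20803 against 22223 to 28460. Of 6 such markers 1 rose and 0 fell, with a median of -0.45. Of 14 muscle markers 2 rose and 1 fell, 1 of 6 Malpighian tubule markers fell and 1 of 9 neuron markers rose. No gut or photoreceptor marker passed. The part of all these markers in the result was not tested.

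The daw-3'UTR mutant changed none of the members beyond the test. The gene daw encodes dawdle, an activin-like ligand. Limma called 0 of 26 (background 3.12%, with 1.16% higher and 1.96% lower), with 4 at an unadjusted p under 0.05 and 0 by edgeR or DESeq2. Vha68-1 had 870.5, 824 and 775 normalised counts against 953, 1085 and 912 in controls, without overlap, and a difference of -0.25 (SE 0.10, adjusted p = 0.226). V1 genes had a median of -0.10, and 8 of 10 lay below 0, where the median over all genes was 0.01. Of 32 other lysosome genes, 1 fell, the thioesterase Ppt2 (-0.87, adjusted p = 0.00265). Reads of daw had a mean of 439 in the mutant and 282 in controls.

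In the daw-3'UTR; foxo double mutant 7 of 10 V1 genes fell and 3 of 5 lysosomal genes rose. Its controls are the same libraries as for the Atg8a and daw-3'UTR mutants. Of 26 members 4 rose and 9 fell, where 16.7% of all genes rose and 19.1% fell (35.8% in all). No V1 gene rose, and their median difference was -0.40. Of 11 V0 genes 1 rose and 2 fell, with a median of -0.06. No lysosomal gene fell, their median was 0.48, and the median over all genes was 0.01. Leaving out single libraries gave 10 to 15 called members.

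Within V1, Vha68-1 had 579, 526 and 603 normalised counts in the double mutant and 953, 1085 and 912 in controls, a difference of -0.79 (SE 0.10, adjusted p = 3.11e-05). Vha55 had 1591, 1613 and 1671 against 2381, 2488 and 2107, a difference of -0.51 (SE 0.08, adjusted p = 0.000214). Vha44 had 719, 787 and 764 against 1099.5, 1193 and 1056, a difference of -0.56 (SE 0.08, adjusted p = 9.55e-05). None of these groups overlapped, and the same was true of the stalk subunits. Vha13 had 656, 649 and 625 against 854, 952 and 898, a difference of -0.48 (SE 0.08, adjusted p = 0.000269). Vha26 had 1511, 1557 and 1609.9 against 2114, 2198 and 1894, a difference of -0.41 (SE 0.08, adjusted p = 0.00123). VhaSFD had 689, 734 and 769 against 969.7, 1016 and 898, a difference of -0.40 (SE 0.08, adjusted p = 0.00139). The rotor subunit F, Vha14-1, fell with -0.32 (adjusted p = 0.0134), a call lost without control replicate 2 (adjusted p = 0.0513). The V1 genes that did not pass were Vha68-2, Vha36-1 and Vha36-3, with differences of -0.11, -0.21 and 0.26.

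In the V0 sector 3 of 11 genes passed the test. The most abundant gene, Vha16-1, had 4163, 4627 and 4176 normalised counts against 4178, 4841 and 3919 in controls, overlapping groups with a difference of 0.01 (SE 0.09, adjusted p = 0.962). Subunit d, VhaAC39-1, fell (-0.35, adjusted p = 0.00944), as did the a isoform Vha100-2 (-0.33, adjusted p = 0.0423), while the a isoform Vha100-1 rose (0.35, adjusted p = 0.0152). Without control replicate 2 the adjusted p was 0.0521 for VhaAC39-1. Vha100-1 was not called without replicate 1 (adjusted p = 0.0697) or 2 (0.0658) of the double mutant. Vha100-2 kept its call in 1 of 6 fits that left out 1 library, and its adjusted p reached 0.165 without control replicate 2. The other 8 V0 genes tested did not pass, among them the proteolipid VhaPPA1-1 (c'', -0.11) and the accessory proteins VhaAC45 (-0.14) and VhaM8.9, the fly prorenin receptor (-0.06).

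Among the lysosomal genes Npc2a had 306, 240.3 and 218 normalised counts in the double mutant and 86.5, 111 and 122 in controls, a difference of 1.25 (SE 0.17, adjusted p = 6.05e-05). Npc1a had 244, 265 and 256 against 211, 177 and 157, a difference of 0.50 (SE 0.11, adjusted p = 0.00261). Lamp1 had 1466, 1638 and 1465 against 1224, 1217 and 862, a difference of 0.48 (SE 0.12, adjusted p = 0.00473). None of these groups overlapped. For cathD, with 1201, 1224 and 851 against 928, 899 and 748, replicate 3 of the double mutant lay within the control range and the difference of 0.33 (adjusted p = 0.0675) did not pass. The libraries of spin lay below controls without overlap, and the difference was -0.31 (adjusted p = 0.0745).

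Of 32 other lysosome genes, 11 rose and 4 fell in the double mutant. The mannosidases LManI (0.92, adjusted p = 0.0014) and LManII (0.60, adjusted p = 0.000872), the cathepsin CtsB (0.88, adjusted p = 0.000138), the hexosaminidase Hexo2 (0.87, adjusted p = 0.000486), Sap-r (0.62, adjusted p = 0.000419) and Npc2g (0.88, adjusted p = 1.72e-05) were among those that rose. Cell-type markers moved in the same libraries. Summed hemocyte markers were 11001 to 12193 in the double mutant and 4262 to 4495 in controls, and 7 of 8 rose. Summed neuron markers were 1526 to 2086 against 2937 to 3424, and 7 of 9 fell. Summed Malpighian tubule markers were 638 to 822 against 185 to 347, and 4 of 6 rose. Summed muscle markers were 152176 to 203723 against 121559 to 147196, and of 14 markers 9 rose and 4 fell. Of 7 gut markers 2 fell, and of 6 fat body markers 2 fell. Their part in the members' changes was not tested.

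Set against the daw-3'UTR mutant, which shares the daw allele, the double mutant had 4 members higher and 6 lower of 26, where 30.6% of all genes were called (14.4% higher and 16.2% lower). The V1 genes counted 0 higher and 6 lower of 10, the V0 genes 1 higher and 0 lower of 11, and the lysosomal genes 3 higher and 0 lower of 5. The double mutant libraries are the same as in the comparison with controls. Vha44 had 1065, 1092 and 1159 normalised counts in the daw-3'UTR mutant, a difference of -0.55 (SE 0.08, adjusted p = 0.000181). Npc2a had 90.3, 124 and 131 there, a difference of 1.14 (SE 0.17, adjusted p = 0.000183). Vha68-1 had a difference of -0.53 (SE 0.10, adjusted p = 0.000925) and Vha55 one of -0.42 (SE 0.08, adjusted p = 0.00135), with no overlap of groups in any of the 4 genes. Vha13 (-0.32, adjusted p = 0.00736), Vha26 (-0.31, adjusted p = 0.00946) and VhaSFD (-0.30, adjusted p = 0.0099) were lower as well. Npc1a (0.41, adjusted p = 0.00993), Lamp1 (0.37, adjusted p = 0.0253) and Vha100-1 (0.29, adjusted p = 0.0438) were higher. Lamp1 was not called without replicate 1 (adjusted p = 0.0701) or 2 (0.0837) of the daw-3'UTR mutant or replicate 2 of the double mutant (0.0991). VhaSFD was not called without replicate 1 of the double mutant (0.0507), and Vha100-1 kept its call in 1 of 6 such fits, with an adjusted p of up to 0.160 without replicate 1 of the double mutant. Of 32 other lysosome genes, 9 were higher and 1 lower. Cell-type markers differed between these groups too. Of 8 hemocyte markers 7 were higher, with sums of 11001 to 12193 in the double mutant and 4419 to 4726 in the daw-3'UTR mutant. Of 9 neuron markers 8 were lower, with sums of 1526 to 2086 against 2967 to 3260. Of 14 muscle markers 9 were higher and 3 lower, with sums of 152176 to 203723 against 112205 to 146120. The lists also gave 3 of 6 Malpighian tubule and 2 of 7 gut markers higher and 3 of 6 fat body markers lower. The part of these markers in the result was not tested.

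**Figure D4:**
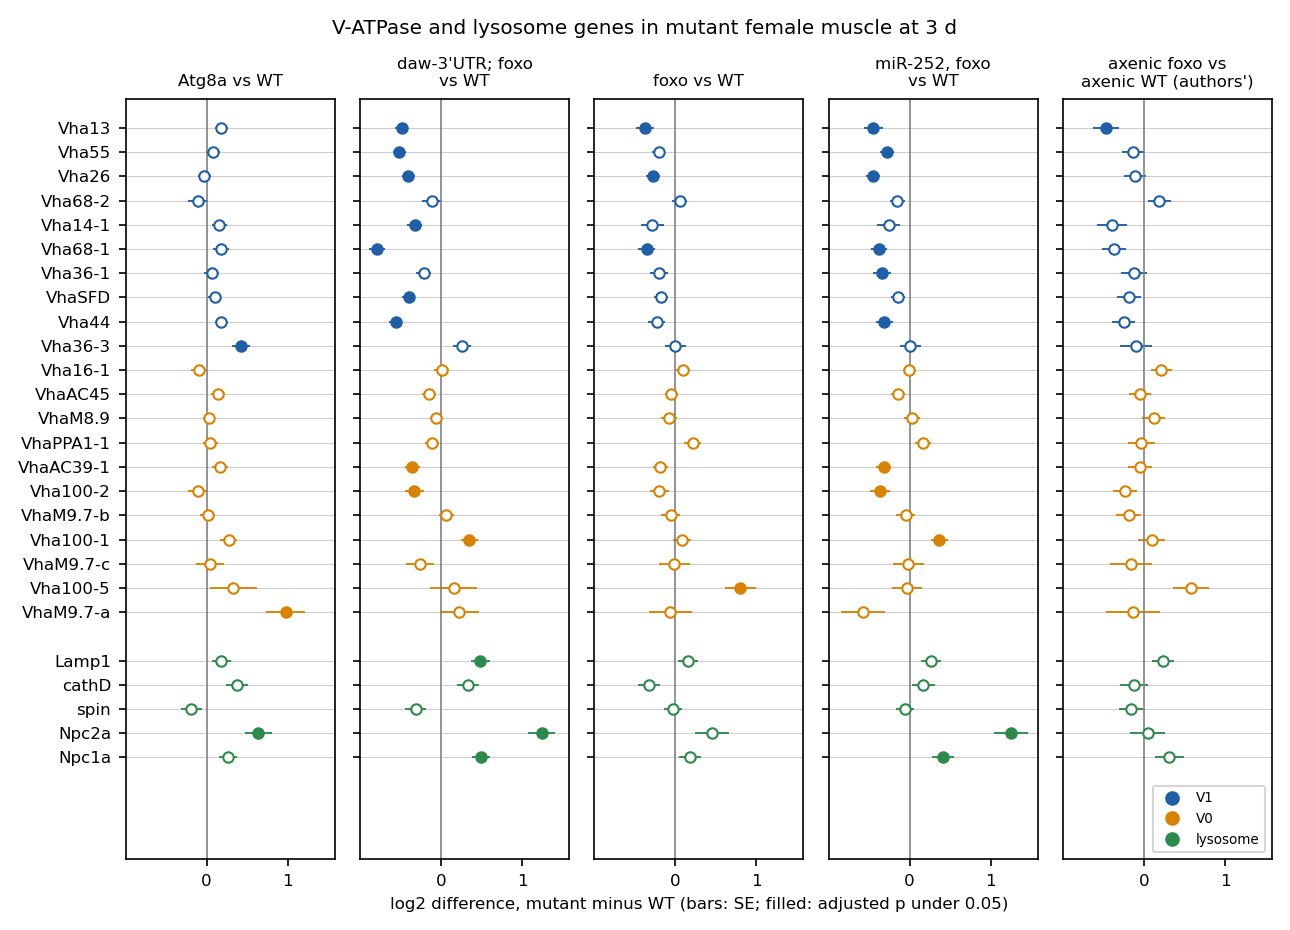
Log2 difference from control of 26 members, with bars of 1 SE, in the Atg8a, daw-3'UTR; foxo, foxo and miR-252, foxo mutants and, from the authors' deposited table, in axenic foxo mutants. Filled points have an adjusted p under 0.05, and V1 genes are blue, V0 genes orange and lysosomal genes green. In the daw-3'UTR; foxo mutant 7 V1 genes are filled below 0 and 3 lysosomal genes are filled above 0.

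In the miR-252 mutant no member passed the test. Limma called 0 of 26 (background 4.39%, with 1.88% higher and 2.51% lower), with 2 at an unadjusted p under 0.05, 0 by edgeR and 1 by DESeq2. The gene nearest to the threshold was spin, with 716, 663 and 675 normalised counts in the mutant and 899, 854 and 923 in controls, groups that did not overlap, and a difference of -0.38 (SE 0.11, adjusted p = 0.0507). Vha36-3 had 172, 162 and 176 against 146, 136 and 109, also without overlap, and a difference of 0.39 (SE 0.13, adjusted p = 0.112). V1 genes were split, with 5 of 10 above 0 and 5 below. Among 33 other lysosome genes the hexosaminidase Hexo1 rose (0.46, adjusted p = 0.0171), and Npc2b (-0.54, adjusted p = 0.0172) and Npc2g (-0.48, adjusted p = 0.0195) fell. Of 8 gut markers 1 rose and 4 fell, with sums of 18491 to 22056 in the mutant and 29185 to 34829 in controls, and their part in these values was not tested.

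In the foxo mutant 3 V1 genes fell and 1 V0 gene rose. The gene foxo encodes the FOXO transcription factor, which insulin signalling keeps out of the nucleus. Vha100-5, the least abundant of the tested a isoforms, had 191, 243 and 216 normalised counts in the mutant and 114, 149 and 110.1 in controls, a difference of 0.80 (SE 0.19, adjusted p = 0.00751). Vha68-1 had 866, 877 and 888 against 1169, 1038 and 1165, a difference of -0.35 (SE 0.10, adjusted p = 0.0294). Vha13 had 974, 1174 and 954 against 1276, 1307 and 1424, a difference of -0.37 (SE 0.11, adjusted p = 0.0384). Vha26 had 1986, 1963 and 2032 against 2383, 2439.6 and 2433, a difference of -0.28 (SE 0.09, adjusted p = 0.0415). None of these groups overlapped.

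These are 1 higher and 3 lower of 26 members, where 11.8% of all genes were called (5.54% higher and 6.28% lower). The count fell to between 1 and 2 when any single library of either group was left out, and edgeR called 2. In those 6 fits Vha100-5 was called in 6, Vha68-1 and Vha13 in 1 each and Vha26 in 0, and the largest adjusted p was 0.150, for Vha13 without replicate 3 of the mutant. The median over V1 was -0.22 with 8 of 10 genes below 0, and the median over all genes was 0.01. Vha55 (-0.21, adjusted p = 0.127) and Vha44 (-0.23, adjusted p = 0.148) did not pass. Their groups did not overlap, but for Vha44 the highest mutant library (1107.5) lay just below the lowest control (1108.6). No lysosomal member passed: the differences were 0.45 (adjusted p = 0.182) for Npc2a, -0.33 (adjusted p = 0.143) for cathD, 0.18 (adjusted p = 0.438) for Npc1a, 0.16 (adjusted p = 0.452) for Lamp1 and -0.03 (adjusted p = 0.899) for spin. Of 33 other lysosome genes Gba1b, a glucocerebrosidase (-0.88, adjusted p = 0.00763), and Cln3 (-0.74, adjusted p = 0.0334) fell. Summed hemocyte markers were 7278 to 8822 in the mutant and 5276 to 5777 in controls, with 5 of 8 higher. Of 8 gut markers 5 were higher, with a median of 0.70 against 0.52 for hemocyte markers, and their sums were 34073 to 41072 in the mutant and 29185 to 34829 in controls. Summed Malpighian tubule markers were 599 to 896 against 333 to 484, with 2 of 6 higher. Their part in the result was not tested.

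The miR-252, foxo double mutant, set against the same controls, had 3 members higher and 8 lower of 26, where 12.4% of all genes rose and 12.9% fell (25.2% in all). Of 10 V1 genes 0 rose and 6 fell, with a median of -0.30. Of 11 V0 genes 1 rose and 2 fell, and of 5 lysosomal genes 2 rose and 0 fell. Npc2a had 264, 314 and 533 normalised counts in the double mutant and 155, 147 and 142 in controls, a difference of 1.25 (SE 0.21, adjusted p = 0.00017). Replicate 3 of the double mutant was highest, and all 3 libraries lay above the controls. Vha26 had 1716, 1853 and 1743, a difference of -0.45 (SE 0.09, adjusted p = 0.000642), and Vha13 had 1022, 1018 and 901, a difference of -0.45 (SE 0.11, adjusted p = 0.00671).

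Vha68-1 had 952, 906 and 748 and a difference of -0.38 (SE 0.10, adjusted p = 0.0109). Vha55 had 2299, 2391 and 2220.4 and a difference of -0.28 (SE 0.08, adjusted p = 0.0185). Vha44 (-0.31, adjusted p = 0.0282), Vha36-1 (D, -0.34, adjusted p = 0.0282), VhaAC39-1 (-0.32, adjusted p = 0.0152) and Vha100-2 (-0.37, adjusted p = 0.029) fell too, and Vha100-1 (0.37, adjusted p = 0.0177) and Npc1a (0.41, adjusted p = 0.0326) rose. None of the called members overlapped controls in their libraries. The count of calls was 5 without control library 3 and 3 without replicate 3 of the double mutant. Without the latter library the adjusted p was 0.0719 for Vha68-1, 0.0554 for Vha55, 0.0966 for Vha44, 0.0627 for VhaAC39-1, 0.123 for Vha100-2, 0.110 for Vha100-1 and 0.222 for Npc1a. Without control library 3 it was 0.0942 for Vha55, 0.164 for Vha44, 0.144 for Vha100-2, 0.0514 for Vha100-1 and 0.140 for Npc1a. Vha36-1 was called in 0 of 6 fits that left out 1 library, with adjusted p of 0.0546 to 0.0806. The count was 8 without control library 1, without control library 2 and without replicate 2 of the double mutant. Lamp1 (0.26, adjusted p = 0.129), cathD (0.17, adjusted p = 0.4) and spin (-0.06, adjusted p = 0.759) did not pass.

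Of 33 other lysosome genes, 5 rose and 3 fell, with Sap-r (0.58, adjusted p = 0.00197), CtsB (0.42, adjusted p = 0.0105) and the HOPS subunit dor (0.62, adjusted p = 0.0219) among those that rose and Mitf (-0.36, adjusted p = 0.0244) among those that fell. Summed hemocyte markers were 9708 to 11672 in the double mutant against 5276 to 5777 in controls, and 7 of 8 rose. Summed neuron markers were 1453 to 1627 against 1923 to 2290, with 2 of 9 lower. Of 8 gut markers 1 rose and 2 fell, with sums of 20327 to 25579 against 29185 to 34829, and of 6 fat body markers 2 rose and 2 fell. Their part in the result was not tested.

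Set against the foxo mutant, the miR-252, foxo double mutant had 2 members higher and 1 lower of 26, where 9.01% of all genes were called (4.74% higher and 4.27% lower). Vha100-5 was lower, with 132, 162 and 81.9 normalised counts in the double mutant and 191, 243 and 216 in the foxo mutant, a difference of -0.83 (SE 0.19, adjusted p = 0.0082). Npc2a was higher, with 264, 314 and 533 against 186, 226 and 197 and a difference of 0.80 (SE 0.21, adjusted p = 0.0218). So was cathD, with 1354, 1545 and 1702 against 1122, 1067 and 1059 and a difference of 0.50 (SE 0.14, adjusted p = 0.031). The groups of each gene did not overlap. The count was 1 without replicate 1 or replicate 3 of the foxo mutant and 0 without replicate 3 of the double mutant. Without that last library the adjusted p was 0.0539 for Vha100-5 and 0.150 for both Npc2a and cathD. For cathD it was also above the threshold without replicate 1 (0.0676), 2 (0.0877) or 3 (0.0982) of the foxo mutant and without replicate 2 of the double mutant (0.0825). For Npc2a it was 0.0801 and 0.0714 without replicate 1 and replicate 3 of the foxo mutant. Leaving out replicate 2 of either group gave 2 calls. Of 33 on the list of other lysosome genes 1 was lower, Hexo1 (-0.40, adjusted p = 0.0275). Of 8 gut markers 6 were lower, with a median of -0.78 and sums of 20327 to 25579 in the double mutant against 34073 to 41072 in the foxo mutant. Of 6 Malpighian tubule markers 2 were lower, with a median of -0.84, and of 8 hemocyte markers 2 were higher. Of 5 photoreceptor markers 1 was lower, with a median of -2.66 and all 5 below 0. What part the markers had in the result was not tested.

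Whether the miR-252 allele acted differently with and without the foxo allele was tested as an interaction. Limma called 0 of 26 members (background 2.09%, with 1.18% higher and 0.909% lower), with 3 at an unadjusted p under 0.05 and 0 by edgeR or DESeq2. Vha100-5 had an interaction of -0.65 (SE 0.26, adjusted p = 0.271). The other lysosome genes Npc2b (0.81, adjusted p = 0.0196) and Hexo1 (-0.86, adjusted p = 0.00356) passed.

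With 1 copy of the daw allele c458 added to the miR-252, foxo double mutant, Npc2a rose and Vha26 fell against controls. These are 1 member higher and 1 lower of 26, where 15.9% of all genes were called (7.69% higher and 8.17% lower). Vha26 had 1916, 1763 and 2066 normalised counts in these flies, a difference of -0.34 (SE 0.09, adjusted p = 0.0112). Npc2a had 211, 329 and 199, a difference of 0.69 (SE 0.21, adjusted p = 0.0302). Neither gene overlapped controls. Leaving out 1 library gave 2 calls without control library 2, 1 call without control library 1 or 3 or replicate 2 of the mutant and 5 calls without its replicate 3. The adjusted p of Npc2a was 0.175 without replicate 2 and 0.0602 to 0.0925 without 1 control library. Among 33 other lysosome genes LManII (-0.43, adjusted p = 0.0221) and Rbcn-3A, a rabconnectin that works with the V-ATPase (-0.33, adjusted p = 0.0477), fell. Summed hemocyte markers were 6803 to 8074, between those of controls and of the double mutant, with 3 of 8 higher than in controls. Of 8 gut markers 4 were higher and 1 lower. Their part in the result was not tested.

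The direct comparison of these flies with the miR-252, foxo double mutant called 0 of 26 members (background 5.09%, with 2.79% higher and 2.3% lower) by limma, with 5 at an unadjusted p under 0.05 and 0 by edgeR or DESeq2. All 10 V1 genes lay above 0, with a median of 0.20, and none passed the test. The lysosomal genes had a median of -0.28, and all 5 lay below 0. The median over all genes was -0.02, and the genes of a sector were not tested as a set. Vha68-1 had 1058, 1026 and 979 normalised counts against 952, 906 and 748 in the double mutant, without overlap, and a difference of 0.24 (SE 0.10, adjusted p = 0.206). Npc2a had a difference of -0.56 (SE 0.21, adjusted p = 0.14) and overlapping groups. The count was 2 without replicate 2 and 1 without replicate 3 of the flies with the daw allele, and 1 without replicate 1 of the double mutant. The list of 33 other lysosome genes held 1 that was lower, LManI (-0.64, adjusted p = 0.0455). Of 8 gut markers 3 were higher, and of 8 hemocyte markers 3 were lower. Of 5 photoreceptor markers 1 was higher, with a median of 2.50 and all 5 above 0. The part of all these markers in these values was not tested.

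**Figure D5:**
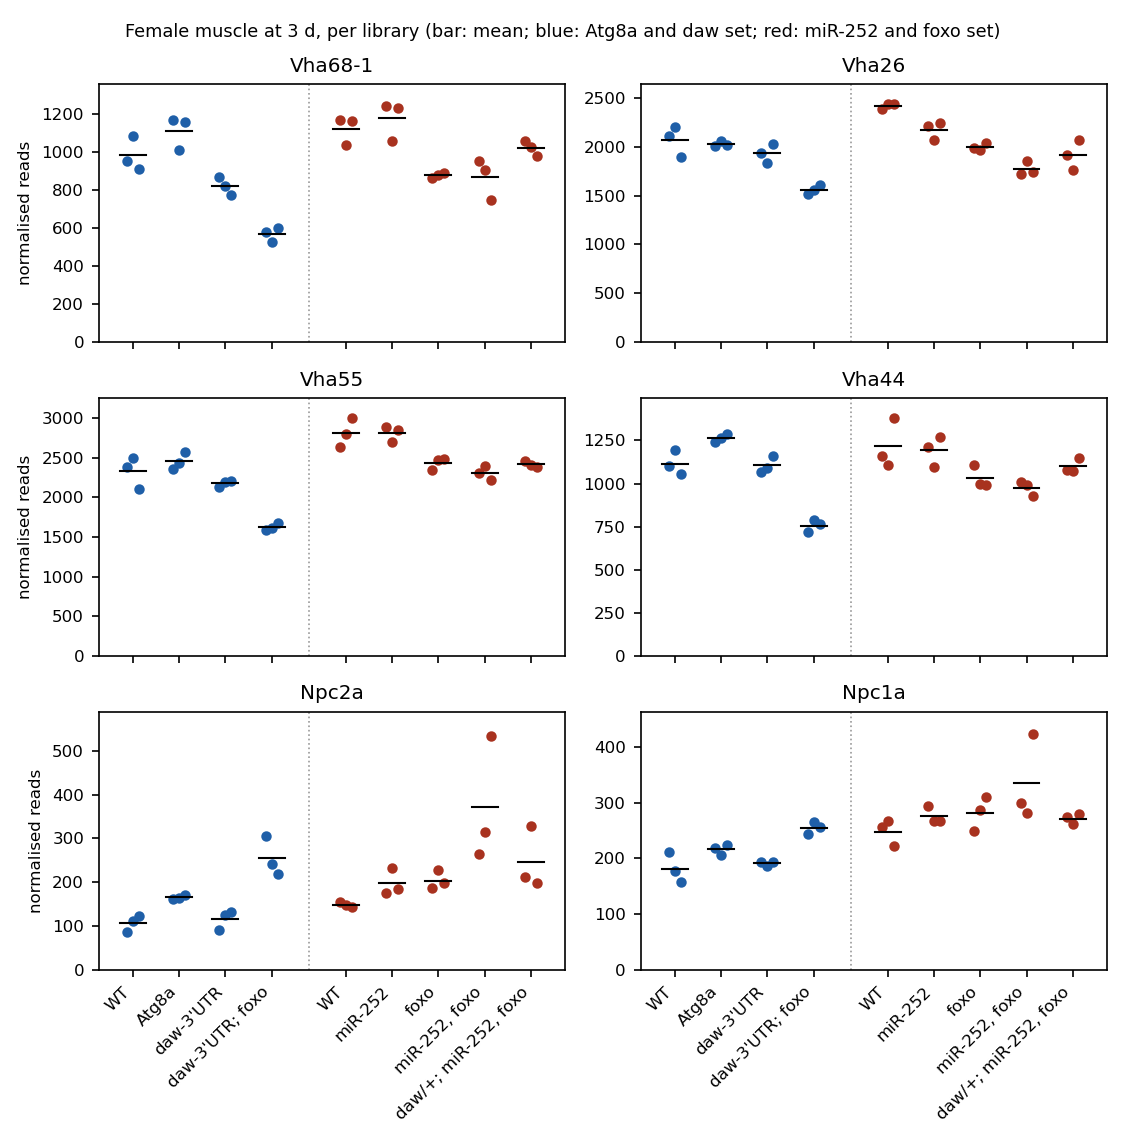
Normalised counts per library of Vha68-1, Vha26, Vha55, Vha44, Npc2a and Npc1a in 9 groups of 3 d females, with bars at group means over 3 libraries; colours mark the separately normalised sets. In the daw-3'UTR; foxo mutant the 4 V1 genes lie below all controls of its set and Npc2a and Npc1a lie above them.

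For flies raised axenically, per-library values were not used, and the authors' deposited table gives the comparison of foxo mutants with controls. At an adjusted p under 0.05, 0 of 26 members were higher and 1 was lower by the authors' deposited table, where 6.25% of all genes with an adjusted p were called (3.01% higher and 3.24% lower). That member was Vha13, whose log2 fold change in the authors' deposited table was -0.47 (SE 0.16, adjusted p = 0.0428). Of 10 V1 genes in the authors' deposited table, 9 lay below 0, with a median of -0.16, and the median over all genes was 0.01. Vha68-1 stood at -0.37 (adjusted p = 0.129), Vha26 at -0.11 (adjusted p = 0.797) and Vha100-5 at 0.58 (adjusted p = 0.102) in the authors' deposited table. The lysosomal members did not pass there, with values in the authors' deposited table of 0.05 for Npc2a, -0.12 for cathD, 0.31 for Npc1a, 0.24 for Lamp1 and -0.16 for spin. Among 35 other lysosome genes in the authors' deposited table, Gba1b was lower at -0.98 (adjusted p = 0.000808), and it was the only 1 called. Axenic and conventional flies were not compared with each other, because the authors' deposited table holds no values of conventional flies.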

How the data were processed

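The deposited signal is a normalised read count for each gene in each library, scaled by the authors with size factors from DESeq, table by table. Per the submitters' processing notes STAR, HTSeq and DESeq were used with the build dm6, without versions. The extraction and NEBNext Ultra library kit are per the labels. For axenic flies the authors' deposited table gives a mean normalised signal, a log2 fold change, its standard error (a score per gene) and a p-value with its adjusted form. No source used here says whether that fold change was shrunk.

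Members were matched by symbol, or by identifier where a table gives no symbol (Vha26 and Vha13 in 1 table). Members and gene lists were chosen with earlier results of these data known. Genes with a mean of at least 10 per table were tested with limma 3.58.1 (trended prior) in R 4.3.3 on log2(value + 1), over all groups of a table, with Benjamini-Hochberg adjustment over all genes tested and 3 libraries per group. Tables were never tested against each other. Dividing by the value of 1 read gave whole reads for 100% of values within 0.01, and edgeR 4.0.16 and DESeq2 1.42.0 ran on those reads as alternatives. Totals of 2358162 to 4078819 reads set the precision. Levels per kilobase use the union of annotated exons. Per-library values are given for called members with the smallest adjusted p, up to 8 per comparison, and for the lysosomal members where they are described. Genes outside the members are the mutated genes, as a check of the labels, and called genes of the list of other lysosome genes, up to 6 per comparison. Same-numbered replicates were checked for pairing by correlating their deviations. Correlations over 0.1 occurred in 0 of 18 pairs in males and 5 of 18 in the Atg8a and daw set. In the miR-252 and foxo set they occurred in 5 of 18. The highest there was 0.281, between replicate 2 of the foxo and of the miR-252, foxo mutants. Pairing of libraries by number was thus neither established nor excluded. The Ago1 precipitates were not used here.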

Additional observations from a re-analysis of the deposited data

How the results depend on the processing

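Across all alternatives run, 620 values of called members were recomputed: none reversed its direction, 516 kept their side of the threshold and 104 did not pass it, 87 of 294 with 1 library left out and 17 of 326 under other settings. Counts of called members moved by over 1.5 times as follows; the cause was not tested. DESeq2 on whole reads called 4 members at 15 d, 4 at 30 d and 4 at 45 d in males, 1 in the Atg8a mutant and 1 in the miR-252 mutant. Scaling to a common upper quartile called 1 at 15 d and 1 in the miR-252 mutant. The edgeR test called 2 at 30 d and 2 in the foxo mutant. Fitting only the groups compared gave 0 at 30 d, 0 at 45 d, 1 between 15 d and 30 d, 1 in the miR-252 mutant and 1 in the miR-252, foxo mutant with the daw allele. A pseudocount of 8 gave 2 at 30 d, and no filter on low values gave 1 in the miR-252 mutant. With 1 library left out at a time the counts ran from 0 to 10 at 15 d, 0 to 11 at 30 d and 1 to 12 at 45 d, and were 0 between 15 d and 30 d and between 30 d and 45 d. In the females they ran from 0 to 3 for Atg8a, 10 to 15 for daw-3'UTR; foxo against controls and 8 to 11 against daw-3'UTR, 1 to 2 for foxo, 3 to 12 for miR-252, foxo against controls and 0 to 3 against foxo, 1 to 5 with the daw allele against controls and 0 to 2 against miR-252, foxo. They were 0 for daw-3'UTR, for miR-252 and for the interaction. The replicate number was also used as a block, although pairing by number was not established. With it the counts were 0, 1 and 2 at 15 d, 30 d and 45 d, 0 between later ages, 4 for Atg8a, 0 for daw-3'UTR, 14 for daw-3'UTR; foxo and 10 against daw-3'UTR, 3 for miR-252, foxo against foxo and 0 with the daw allele against it. No paired analysis was possible for comparisons with the controls of the miR-252 and foxo set because their columns carry no number from the labels. Depth limits the rarest members, VhaM9.7-a, Vha100-5 and Vha100-4.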

Other observations

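VhaAC45RP, a gene related by name to the accessory protein VhaAC45, is listed by identifier only and so is not a member. It was chosen after its values were seen. Its normalised counts were 141, 147 and 167 in 3 d males, 113, 142 and 116 at 15 d, 94.6, 88.5 and 75.7 at 30 d and 92.8, 79.8 and 77.0 at 45 d. The groups at 30 d and 45 d lay below the 3 d group without overlap, with differences of -0.81 (SE 0.16, adjusted p = 0.00461) and -0.86 (SE 0.16, adjusted p = 0.00244). In females it had 42.1, 37.0 and 36.0 in the daw-3'UTR; foxo mutant and 76.6, 78.7 and 78.7 in controls, a difference of -1.01 (SE 0.12, adjusted p = 2.15e-05). The Atg8a mutant had 97.4, 103 and 103, above controls without overlap, but the difference of 0.37 (SE 0.12, adjusted p = 0.0632) did not pass. In the other set it fell in the miR-252, foxo mutant (-0.60, adjusted p = 0.0217) and in the same mutant with the daw allele (-0.55, adjusted p = 0.0485), and did not pass in the foxo mutant (-0.56, adjusted p = 0.0531). The authors' deposited table gives -0.47 (adjusted p = 0.36) in axenic foxo mutants.

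Vha100-4 was too low to test, yet 1 library in each of 3 groups held most of its counts. Replicate 2 of the miR-252, foxo mutant had 44.1 normalised counts and replicate 2 of the foxo mutant had 24.2, while the other libraries of that set had at most 3.32. The same libraries, together with control library 2, held nearly all reads of 3 other lysosome genes. In the order control library 2, foxo and miR-252, foxo, LManVI had 205, 294 and 359 normalised counts, LManV had 15.0, 169 and 133, and Npc2d had 10.98, 12.6 and 20.2. The other 12 libraries had at most 6.55, 2.18 and 0.971. Control library 2 had 0 for Vha100-4. These genes were looked at in this way after their values were seen. Replicate 2 of the controls of the Atg8a and daw set had 10.9, and the other libraries of that set had at most 2.44. It lies next to Vha100-2 on chromosome arm 3R.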
